A study of Mus musculus with 15 samples.

Results

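The mononuclear phagocytes of the intestinal lamina propria (LP) that carry CD11b include resident macrophages (mϕ), which are stained by antibodies to the Fcγ receptor CD64, and CD64- dendritic cells (DCs). The comparison described here set the 3 arrays labelled CD64+ (CD64+ mϕ) against the 3 arrays labelled CD64-CD103-CD11b+ (CD103-CD11b+ DCs). These are 6 of the 15 arrays of the series; the other 9 are the CD64-CD103+CD11b+, CD64-CD103+CD11b- and CD64-CD103-CD11b- DC subsets, with 3 arrays each. All 19938 genes that had a probeset with a single gene symbol were compared, out of 35556 probesets, and a gene with several probesets was represented by the one with the highest mean. The cells came from the small intestine of healthy wild-type C57BL/6 mice at steady state, after removal of Peyer's patches and epithelium and digestion with collagenase and DNase. CD64+ mϕ were sorted as CD45+Ly6C-MHCII+CD64+CD11b+ cells, and CD103-CD11b+ DCs came from the CD64-CD11c+MHCII+ gate by staining for CD11b without CD103. None of the 5 populations carried a transgene or received a treatment. The study used mice of both sexes at 6 to 12 weeks of age. The labels do not say how many mice went into a sample, so the spread between the 3 arrays of a population may be partly technical.

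Intestinal mϕ are replenished largely by blood monocytes, depend on CSF1 receptor signalling and are known for clearing bacteria and dying cells without provoking inflammation. Conventional DCs arise from bone marrow precursors that respond to FLT3 ligand, and are known for carrying antigen through lymph to T cells. CD103-CD11b+ cells have been hard to place because CD11b, CD11c and MHC class II are shared by both lineages.

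All values below are log2 signals from Affymetrix Mouse Gene 1.0 ST arrays, normalized by robust multi-array averaging, and each array gave 1 value per gene. Differences are given as the CD64+ mϕ mean minus the CD103-CD11b+ DC mean on the log2 scale, with the standard error (SE) from limma. A gene passed when its Benjamini-Hochberg adjusted p from limma was under 0.01 and its difference exceeded 1 in either direction. Signals near 4 lie at the dim end of these arrays, where the 25th percentile over the 6 arrays was 3.95 and the median 5.09, so a fold that has such a signal on one side is compressed. In a sorted bulk sample, fewer cells of a type and less RNA per cell cannot be told apart. Probe sharing between close paralogues, such as those of the *Ccl*, *Fcgr*, *Clec4a* and *Ifit* families, was not tested.

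The 15 arrays were alike in overall signal, with medians of 4.74 to 4.86 over all probesets and 7255 to 7547 genes above 6. Among the 6 arrays compared, CD64+ mϕ replicate 2 stood apart. Its correlation over all genes was 0.983 with replicate 1 and 0.977 with replicate 3, against 0.991 between replicates 1 and 3 of the mϕ, and 0.991 to 0.992 among the CD103-CD11b+ DC arrays. The mean signal of 29 epithelial genes was 6.33, 8.04 and 6.26 on mϕ replicates 1 to 3, against 6.75, 6.48 and 6.82 on the DC replicates. The 24 genes of a macrophage identity list had means of 9.18, 8.86 and 9.14 on the same mϕ arrays, against 6.26, 6.04 and 6.32 on the DC arrays, so replicate 2 remained far above the DCs. The part of these epithelial transcripts in single results was not tested. Without that array, 692 genes were higher and 497 lower, against 603 and 430 with it.

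In all, 1033 of 19938 genes passed (5.18%), of which 603 were higher in CD64+ mϕ (3.02%) and 430 lower (2.16%). The counts of passing members in the gene lists below are to be read beside these shares. The arrays of the populations did not overlap for 1030 of these 1033 genes, and 26.6% of all genes had no overlap. The genes passed on these same arrays, so the lack of overlap adds no separate support to a passing gene. The largest differences lay mostly on the mϕ side. Of the 100 genes that differed by more than 3, 77 were higher in mϕ and 23 lower, and of the 39 that differed by more than 4, 35 were higher and 4 lower. The median over all genes was -0.02.

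**Figure D1:**
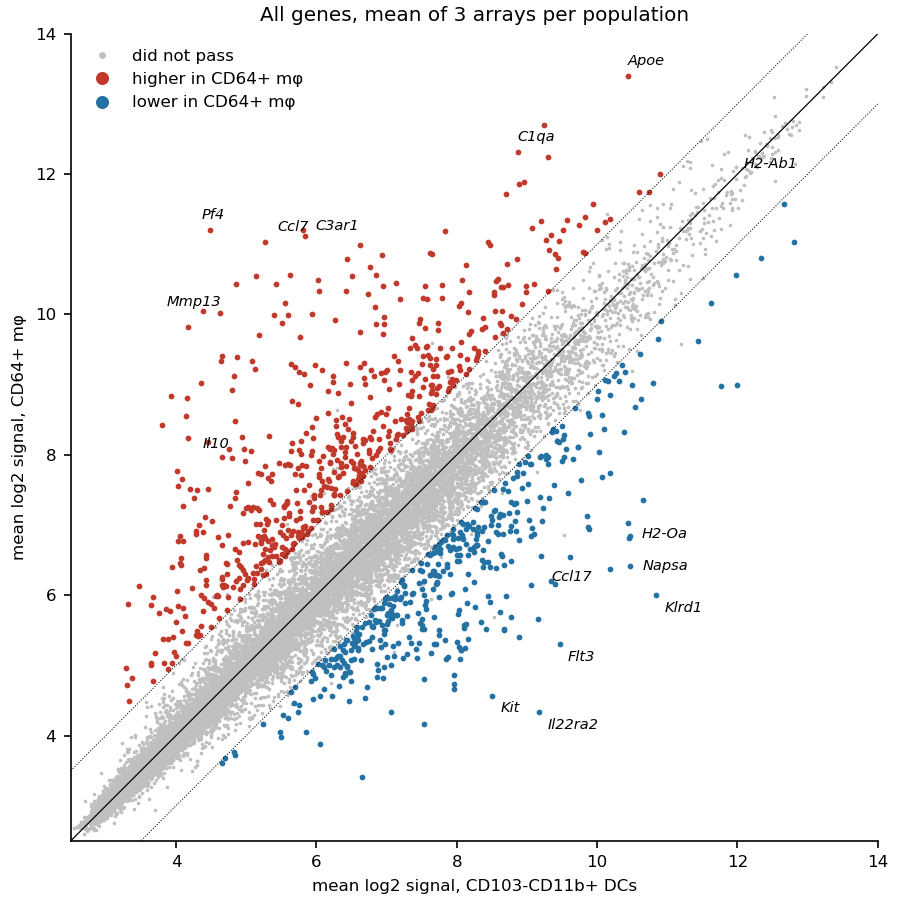
Each point is 1 gene, with its mean log2 signal over the 3 CD64+ mϕ arrays and over the 3 CD103-CD11b+ DC arrays on the axes. The 603 genes that passed as higher in mϕ and the 430 that passed as lower are coloured, with dotted lines at a difference of 1. *Pf4* lies farthest above the diagonal, and *H2-Ab1* lies near it.

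CD103-CD11b+ DCs were the DC subset whose mean profile lay nearest to that of CD64+ mϕ. The correlation distance between the means (1 minus r over all genes) was 0.0388, compared with 0.0485 for CD103+CD11b+, 0.0616 for CD103+CD11b- and 0.049 for CD103-CD11b- DCs. The number of genes passing against mϕ was 1132 for CD103+CD11b+ (5.68%), 1401 for CD103+CD11b- (7.03%) and 1256 for CD103-CD11b- DCs (6.3%), and these comparisons share the mϕ arrays. On the same scale, CD103-CD11b+ and CD103+CD11b+ DCs lay 0.00712 apart, and 92 genes (0.461%) passed between them.

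Of the genes behind the sort, that of CD64 followed the labels. That of CD103 was higher in the DCs gated as CD103- than in mϕ, whose gate did not use CD103. *Fcgr1*, which encodes CD64, had 9.08, 8.69 and 9.0 in CD64+ mϕ, against 4.80, 4.59 and 5.02 in CD103-CD11b+ DCs (difference 4.12, SE 0.19). *Itgae*, which encodes CD103, had 5.25, 4.87 and 5.17 in mϕ and 8.32, 7.54 and 7.66 in the DCs (difference -2.75, SE 0.17), so *Itgae* transcript was present in DCs gated as CD103-. *Itgam*, encoding CD11b, had 10.07, 10.23 and 10.42 in mϕ and 9.51, 9.55 and 9.54 in the DCs, a difference of 0.71 below the size threshold. The genes for the markers that both gates used or that both lineages carry differed by less than the size threshold. *Ptprc* (CD45) differed by -0.07 and the MHC class II gene *H2-Ab1* by 0.12 (adjusted p = 0.374, limma). The CD11c gene *Itgax* differed by -0.75, and by -0.83 to -0.59 over the fits that left out 1 array.

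Genes by which tissue mϕ are recognised separated the populations. Of the 24 measured genes of the macrophage identity list, 21 were higher in CD64+ mϕ and 0 lower, with a median of 2.98 against -0.02 over all genes. *Adgre1*, the gene of a classical mϕ surface antigen, had 10.71, 10.41 and 10.91 in mϕ and 7.25, 6.23 and 6.81 in the DCs (difference 3.91, SE 0.25, adjusted p = 2.66e-08). The fractalkine receptor gene *Cx3cr1* had 10.66, 10.57 and 11.13 in mϕ and 6.28, 6.22 and 6.81 in the DCs (difference 4.35, SE 0.25, adjusted p = 8.17e-09). For both genes every mϕ array lay at least 3 above every DC array. *Csf1r*, the receptor on which mϕ survival depends, had 11.72, 11.39 and 12.03 in mϕ and 8.92, 8.30 and 8.89 in the DCs (difference 3.01, SE 0.20). The 3 members that did not pass were *Cd68* (difference 0.48), *Folr2* (0.66) and *Camp* (-0.15), the last of these a neutrophil granule gene. In each of the 6 fits that left out 1 array, 20 members passed as higher.

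Some resident intestinal mϕ are known to carry TIM-4 and CD4, and both genes were measured. *Timd4*, a phosphatidylserine receptor, had 9.53, 8.39 and 9.45 in mϕ and 6.08, 6.24 and 6.38 in the DCs (difference 2.89, SE 0.23). *Cd4* had 9.55, 8.42 and 9.55 in mϕ and 5.65, 5.81 and 5.81 in the DCs (difference 3.42, SE 0.22, adjusted p = 2.71e-08). Replicate 2 was the lowest mϕ array for both genes and lay above every DC array. Of the defining T-cell genes, *Cd3e* differed by 0.30 and *Cd3d* by 0.50, neither of which passed, whereas *Cd3g* had 6.47, 5.79 and 6.63 in mϕ and 4.78, 4.57 and 4.81 in the DCs (difference 1.58, adjusted p = 0.000661).

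The conventional DC identity genes ran the other way, with 19 of 27 lower in CD64+ mϕ, 2 higher and a median of -1.62. *Flt3* had 5.29, 5.46 and 5.17 in mϕ and 9.39, 9.45 and 9.56 in CD103-CD11b+ DCs (difference -4.16, SE 0.12, adjusted p = 6.77e-12). *Kit*, the stem cell factor receptor gene, had 4.43, 4.84 and 4.44 in mϕ and 8.37, 8.57 and 8.57 in the DCs (difference -3.93, SE 0.11). The arrays of each population lay within 0.5 of one another for both genes. *Zbtb46*, the zinc finger factor of the conventional DC lineage, showed a smaller difference of -1.23 (SE 0.14), with 6.16, 5.88 and 6.07 in mϕ and 7.34, 7.14 and 7.31 in the DCs. *Napsa*, which encodes an aspartic protease, had 6.32, 7.10 and 5.83 in mϕ and 10.28, 10.39 and 10.75 in the DCs (difference -4.05, SE 0.24). The 2 members that were higher in mϕ were *Rab7b*, a GTPase of late endosomes, with 7.46, 7.91 and 7.30 in mϕ and 4.22, 4.24 and 3.63 in the DCs, and *Jaml*, an adhesion molecule, with a difference of 1.05 that did not pass without DC replicate 2 (1.0) or mϕ replicate 3 (0.91). *Rab7b* averaged 8.22 in CD103+CD11b- DCs.

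**Figure D2:**
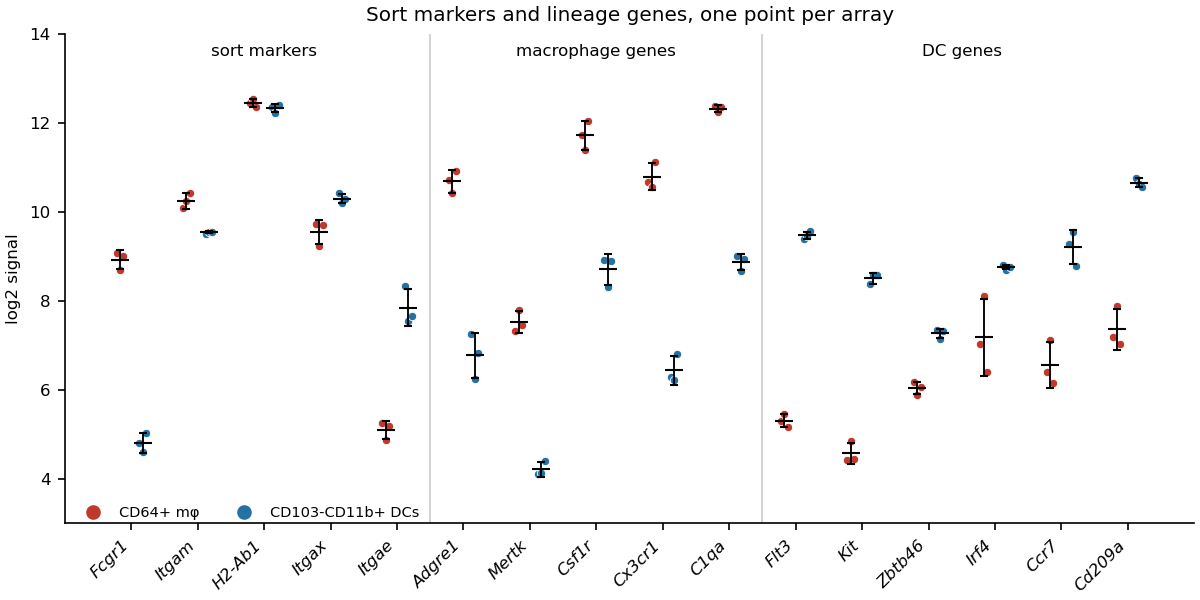
Log2 signals of macrophage and conventional DC genes on each of the 3 CD64+ mϕ arrays (left in each pair) and the 3 CD103-CD11b+ DC arrays (right), with the mean and SD (n = 3) as bars. *Fcgr1*, *Adgre1*, *Cx3cr1* and *Csf1r* were higher on all mϕ arrays, and *Flt3*, *Kit* and *Zbtb46* were higher on all DC arrays.

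Several macrophage genes were nevertheless higher in CD103-CD11b+ DCs than in the CD103+CD11b+ subset. Between CD103-CD11b+ and CD103+CD11b+ DCs, 5 of the 24 macrophage identity genes passed as higher and 0 as lower, where 0.261% of all genes passed as higher. *C1qa* encodes a chain of the complement initiator C1q. It averaged 12.32 ± 0.08 in mϕ and 8.87 ± 0.19 in CD103-CD11b+ DCs (SD, n = 3 each). The CD103+CD11b+ subset averaged 6.14, which left a difference of 2.73 between the DC subsets (adjusted p = 0.00161). *Mrc1*, the mannose receptor gene, had means of 6.02 in CD103-CD11b+ DCs, against 3.96 in the CD103+CD11b+ subset (difference 2.06). The other members were *C1qb* with a difference of 3.29, *Csf1r* with 1.74 and *Cx3cr1* with 1.34. Other genes far higher in mϕ gave small differences between these DC subsets. *Pf4* differed by 0.12 (adjusted p = 0.947) and the sialoadhesin gene *Siglec1* by 0.06 (adjusted p = 0.975). Both were also at the dim end in CD103-CD11b+ DCs, with 4.72, 4.14 and 4.57 for *Pf4* and 4.37, 4.47 and 4.25 for *Siglec1*. The number of mϕ in the DC sort was not measured.

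Genes of the monocyte list did not favour the mϕ. Of 21 measured members, 2 were higher in CD64+ mϕ and 5 lower, with a median of -0.17 that was 0.07 without DC replicate 1. *Ccr2*, the chemokine receptor by which monocytes leave the bone marrow, had 9.48, 9.46 and 9.25 in mϕ and 7.98, 7.21 and 8.37 in the DCs (difference 1.55, SE 0.26, adjusted p = 0.000587), and the DCs in turn exceeded CD103+CD11b+ DCs by 3.29. The calcium-binding protein gene *S100a4* was lower, with 6.80, 6.59 and 7.16 in mϕ and 10.36, 10.29 and 10.76 in the DCs (difference -3.62, SE 0.22). *S100a6* was lower too (difference -2.78, SE 0.23). Between CD103-CD11b+ and CD103+CD11b+ DCs, *S100a4* was 2.98 and *S100a6* 1.96 higher in CD103-CD11b+ DCs. The gate for mϕ excluded Ly6C+ cells.

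The 15 genes most above CD103-CD11b+ DCs in CD64+ mϕ began with the 4 chemokine genes *Pf4*, *Ccl7*, *Ccl12* and *Ccl8*. *Pf4*, which encodes the platelet factor 4 chemokine, had 11.36, 11.01 and 11.26 in mϕ and 4.72, 4.14 and 4.57 in the DCs (difference 6.73, SE 0.19, 106-fold, adjusted p = 6.77e-12). *Pf4* averaged between 4.24 and 4.36 in the other DC subsets. The list also held *Fcgr4* (difference 5.57), the matrix gene *Ecm1* (5.40), the collagenase gene *Mmp13* (5.39) and *Ms4a7* (4.95), a tetraspanning membrane protein gene. *Aoah*, whose product deacylates bacterial lipopolysaccharide, had 9.55, 9.60 and 9.07 in mϕ and 4.72, 4.58 and 4.65 in the DCs (difference 4.75, SE 0.12). At the other end stood *Il22ra2* and *Klrd1*. *Klrd1*, which encodes the lectin-like receptor CD94, had 5.69, 6.62 and 5.69 in mϕ and 10.75, 10.70 and 11.06 in the DCs (difference -4.84, SE 0.23, adjusted p = 1.58e-09), and averaged 9.73 in CD103+CD11b+ DCs. *Plet1*, an epithelial progenitor surface protein gene, had 5.40, 5.97 and 5.62 in mϕ and 9.83, 8.86 and 8.80 in the DCs (difference -3.50, SE 0.25).

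**Figure D3:**
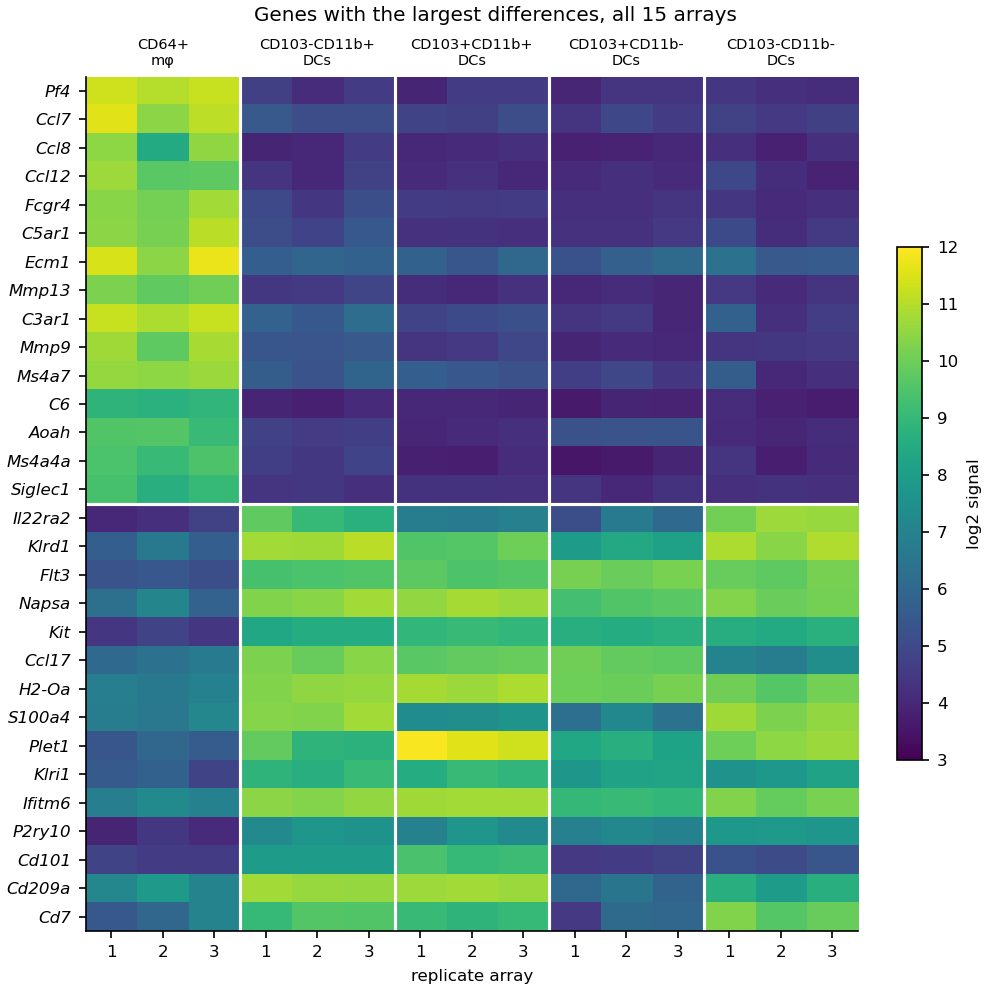
Log2 signals of the genes with the largest differences in each direction, on the 3 CD64+ mϕ arrays (left columns), the 3 CD103-CD11b+ DC arrays and the 9 arrays of the other DC subsets. *Pf4*, with the largest difference, ran at 11.01 to 11.36 on mϕ arrays and 4.14 to 4.72 on CD103-CD11b+ DC arrays, whereas *Il22ra2* ran at 4.02 to 4.74 on mϕ arrays and 8.71 to 9.82 on CD103-CD11b+ DC arrays.

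Chemokine genes held the largest single difference, that of *Pf4*. Of 33 measured, 15 were higher in CD64+ mϕ and 2 lower, with a median of 1.0. The monocyte attractant gene *Ccl7* had 11.60, 10.42 and 11.10 in mϕ and 5.53, 5.14 and 5.14 in the DCs (difference 5.77, SE 0.23). *Ccl12* differed by 5.65 (SE 0.28), *Ccl2* by 3.91 (SE 0.21), and *Ccl8* had 10.45, 8.51 and 10.51 in mϕ and 3.92, 4.04 and 4.55 in the DCs (difference 5.65, SE 0.38). No mϕ array of these 4 genes overlapped a DC array. *Ccl24*, an eosinophil attractant gene, had 8.87, 6.17 and 9.11 in mϕ and 5.34, 4.7 and 5.19 in the DCs (difference 2.98, SE 0.53), and 3.92 without mϕ replicate 2. The opposite pair were the CCR4 ligands, which attract T cells. *Ccl17* had 6.07, 6.39 and 6.67 in mϕ and 10.23, 9.92 and 10.40 in the DCs (difference -3.8, SE 0.18), and *Ccl22* had 5.56, 5.52 and 5.41 in mϕ and 8.78, 8.23 and 9.0 in the DCs (difference -3.17, SE 0.23). The inflammatory chemokine genes *Ccl3* (adjusted p = 0.0274) and *Ccl4* (difference 0.90) did not pass, with means of 12.48 in mϕ and 11.48 in DCs for *Ccl3*. Among the 6 arrays alone, 11 chemokine genes passed as higher.

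Receptors that sense attractants differed as well, with 12 of 37 higher in CD64+ mϕ and 3 lower. *C5ar1* had 10.43, 10.17 and 11.06 in mϕ and 5.12, 4.80 and 5.49 in the DCs (difference 5.42, SE 0.23), and *C3ar1* had 11.23, 10.88 and 11.25 in mϕ and 5.82, 5.49 and 6.20 in the DCs (difference 5.28, SE 0.30). These encode the receptors for the complement fragments C5a and C3a. The nucleotide receptor gene *P2ry12* was higher by 3.65 (SE 0.19) and the chemerin receptor gene *Cmklr1* by 4.25 (SE 0.15). *Ccr7*, the receptor that guides migrating DCs to lymph nodes, had 6.41, 7.13 and 6.14 in mϕ and 9.28, 9.55 and 8.79 in the DCs (difference -2.65, SE 0.27, adjusted p = 3.62e-06). The prostaglandin receptor gene *Ptger4* was lower (difference -1.05), but not past the threshold without DC replicate 2 (-0.96) or mϕ replicate 3 (-0.88). *Ccr9*, a gut-homing receptor gene, had 5.95, 6.3 and 5.21 in mϕ and 7.53, 6.69 and 6.6 in the DCs (difference -1.12), and it lost the call without DC replicate 1 (-0.83) or mϕ replicate 1 (-1.18) or 3 (-0.82). With cyclic loess normalization in place of the deposited scale, 1 receptor gene passed as lower.

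The complement and Fc receptor genes that passed were all higher in CD64+ mϕ. Of 26 complement genes 10 were higher and 0 lower, and of 14 Fc receptor genes 5 were higher and 0 lower. *C6*, a component of the membrane attack complex, had 8.85, 8.75 and 8.92 in mϕ and 3.93, 3.80 and 4.07 in the DCs (difference 4.91, SE 0.12, adjusted p = 2.67e-12). *C1qa* had 12.37, 12.23 and 12.35 in mϕ and 9.01, 8.66 and 8.95 in the DCs (difference 3.45, SE 0.39). *C1qc* differed by 2.94 but had a wide SE of 0.72, and it lost the call in each of the 6 fits that left out 1 array (differences 2.67 to 3.09). *C4b* differed by 1.21, and by 0.92, short of the size threshold, without mϕ replicate 1. *Cfp*, the properdin gene, did not differ past the threshold (10.58, 10.11 and 10.26 in mϕ, and 10.39, 10.67 and 10.51 in the DCs). Of the Fc receptors, *Fcgr4* had 10.41, 10.12 and 10.76 in mϕ and 5.00, 4.41 and 5.16 in the DCs (difference 5.57, SE 0.18). The low-affinity activating receptor gene *Fcgr3* differed by 3.32 and the inhibitory *Fcgr2b* by 2.41. The gene *Fcer1g*, for the signalling chain of the activating receptors, differed by 0.93, below the size threshold. It passed without DC replicate 3 (1.04) or mϕ replicate 2 (1.03).

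Scavenger and apoptotic-cell uptake genes were higher for 16 of 41 members and lower for 2, with a median of 0.48. *Msr1*, scavenger receptor A, had 10.53, 9.60 and 10.37 in mϕ and 6.01, 5.01 and 5.65 in the DCs (difference 4.61, SE 0.27). *Mrc1* had 10.57, 10.42 and 10.48 in mϕ and 6.48, 5.53 and 6.05 in the DCs (difference 4.47, SE 0.17). *Stab1*, the stabilin receptor gene, was higher by 4.37 (SE 0.17). Of the 3 kinase receptors for phosphatidylserine-bound ligands, *Axl* was higher by 3.55 (SE 0.18) and *Mertk* by 3.31 (SE 0.13), while *Tyro3* was dim in both (mean 4.38 in mϕ and 4.38 in the DCs). Their ligand gene *Gas6* was higher by 3.33 (SE 0.17). *Mertk* had 7.31, 7.78 and 7.46 in mϕ and 4.10, 4.11 and 4.40 in the DCs. The haemoglobin scavenger gene *Cd163* differed by 2.46. The 2 lower members were the coinhibitory receptor gene *Havcr2* (difference -1.55) and *Cd300lf* (difference -1.61).

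Genes for handling what is taken up were also higher in part. For lipid and cholesterol handling 12 of 39 were higher in CD64+ mϕ and 2 lower. The cholesterol exporter gene *Abca1* had 6.99, 7.01 and 7.0 in mϕ and 4.33, 4.27 and 4.39 in the DCs (difference 2.67, SE 0.10). *Apoe* had 13.42, 13.33 and 13.45 in mϕ and 10.55, 10.25 and 10.54 in the DCs (difference 2.96, SE 0.50). Both lower members act in cholesterol synthesis, *Srebf2* with a difference of -1.29 (SE 0.09) and *Hmgcs1* with -1.21 (SE 0.13). For iron and haem, 8 of 31 were higher and 1 lower. The haem oxygenase gene *Hmox1* had 9.82, 11.12 and 10.47 in mϕ and 8.17, 8.62 and 8.89 in the DCs (difference 1.91, SE 0.33), and the iron exporter gene *Slc40a1* had 6.35, 4.89 and 6.34 in mϕ and 3.74, 3.73 and 3.48 in the DCs (difference 2.21, SE 0.28). The transferrin receptor gene *Tfrc* was the lower member, with a difference of -1.14 (SE 0.10). The ferritin genes *Ftl1* (difference 0.49) and *Fth1* (0.22) did not pass.

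Lysosomal genes were raised unevenly. Of 48 proteases and hydrolases 14 were higher in CD64+ mϕ and 1 lower (median 0.66), and of 34 lysosomal membrane and proton pump genes 7 were higher and 0 lower (median 0.57). The asparaginyl endopeptidase gene *Lgmn* had 11.92, 11.53 and 12.13 in mϕ and 8.64, 9.07 and 8.95 in the DCs (difference 2.98, SE 0.14). *Ctsd*, which encodes cathepsin D, had 10.33, 9.84 and 10.33 in mϕ and 8.11, 7.93 and 8.14 in the DCs (difference 2.11, SE 0.18), *Ctsl* differed by 2.17 and *Ctsb* by 1.79. The lysosomal membrane glycoprotein genes differed less, *Lamp2* by 1.40 and *Lamp1* by 1.17. *Arsb*, an arylsulfatase, was lower, with 6.78, 6.69 and 7.06 in mϕ and 9.16, 8.90 and 9.12 in the DCs (difference -2.22, SE 0.12). *Hexa* (difference 0.69), *Gaa* (0.56) and *Lipa* (0.28) did not pass. Without mϕ replicate 2, 18 hydrolases passed as higher.

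The CLEAR element bound by the lysosomal regulator TFEB has the palindromic core TCACGTGA, and the promoter of *Ctsd* is printed because it holds that core and the gene was among those with the larger lysosomal differences. The sequence is from RefSeq (GRCm38.p6, minus strand, chr7:142387778-142388077), and runs from 250 bases before the start of the gene to 50 after it, with the core in capitals.
Ctsd: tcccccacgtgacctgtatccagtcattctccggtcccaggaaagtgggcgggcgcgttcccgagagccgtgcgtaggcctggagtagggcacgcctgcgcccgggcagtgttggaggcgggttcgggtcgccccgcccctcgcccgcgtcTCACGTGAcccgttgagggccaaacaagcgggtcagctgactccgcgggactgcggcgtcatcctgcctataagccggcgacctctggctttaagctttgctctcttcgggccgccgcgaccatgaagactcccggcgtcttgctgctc
Promoters were matched for 65 of the 82 lysosomal genes, and 9 held the core, among them 1 of the 18 that passed as changed and 8 of the 47 that did not. The core stood in 1.12% of all 27025 genes with a promoter in the table (both strands searched). A match is a run of letters in this window and does not show a bound site.

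Cytokine genes were split. Of 48 measured, 9 were higher in CD64+ mϕ and 3 lower. *Il10*, the anti-inflammatory cytokine gene, had 7.63, 8.46 and 7.78 in mϕ and 4.61, 4.77 and 5.03 in the DCs (difference 3.15, SE 0.19, adjusted p = 2.06e-08). *Igf1* had 7.95, 6.18 and 8.03 in mϕ and 4.26, 4.16 and 4.36 in the DCs (difference 3.12, SE 0.33), and *Il15* differed by 2.29 (SE 0.19). *Il22ra2* encodes the soluble IL-22 binding protein that blocks IL-22. It had 4.02, 4.24 and 4.74 in mϕ and 9.82, 9.01 and 8.71 in the DCs (difference -4.85, SE 0.33, adjusted p = 6.24e-08). Its difference was the most negative of all genes by less than its SE, and without mϕ replicate 2 that of *Klrd1* was further below 0 (-5.15, against -4.80 for *Il22ra2*). The mean of *Il22ra2* was 10.45 in CD103-CD11b- DCs, while the CD103+CD11b+ subset had 6.81. Many inflammatory cytokine genes did not pass. *Il1b* had 11.30, 11.97 and 11.07 in mϕ and 11.70, 11.31 and 11.02 in the DCs (adjusted p = 0.863), *Tnf* differed by 0.48, and *Il6* by -1.20 at an adjusted p of 0.0106. *Il6* passed as lower with the replicate number as a block (adjusted p = 0.000537) and without DC replicate 3 (difference -1.41, adjusted p = 0.00892). *Il12b* (difference -0.04) and *Il23a* (-0.54) also did not pass, and *Il23a* was dim in both.

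Pattern receptors were higher for 14 of 37 members and lower for 0, with a median of 0.69. The single-stranded RNA sensor gene *Tlr7* had 8.77, 8.11 and 8.41 in mϕ and 3.79, 3.84 and 3.75 in the DCs (difference 4.64, SE 0.15). The genes for the lipopolysaccharide receptor were higher together. *Tlr4* had 8.11, 7.16 and 8.05 in mϕ and 3.95, 3.60 and 4.48 in the DCs (difference 3.76, SE 0.23), and its partners *Ly96* and *Cd14* differed by 3.2 and 3.36. *Tlr9* differed by 1.55, whereas *Tlr3*, which is high in CD103+CD11b- DCs (mean 10.71), differed by 0.73 and did not pass, except without mϕ replicate 2 (1.07).

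C-type lectin genes went both ways, with 9 of 40 higher in CD64+ mϕ and 7 lower. *Clec4a3* and *Clec1b* were higher by 3.64 (SE 0.14) and 3.56 (SE 0.19). *Cd209a*, the DC-SIGN homologue, had 7.17, 7.87 and 7.01 in mϕ and 10.76, 10.63 and 10.56 in the DCs (difference -3.30, SE 0.22). *Clec4a4*, which encodes DCIR2 of CD11b+ DCs, had 3.97, 4.64 and 5.10 in mϕ and 6.54, 5.83 and 6.29 in the DCs (difference -1.65, SE 0.24). Among sialic acid and paired receptors, 6 of 30 were higher and 3 lower. *Siglec1* had 9.37, 8.67 and 9.04 in mϕ and 4.37, 4.47 and 4.25 in the DCs (difference 4.67, SE 0.14, adjusted p = 1.42e-11), whereas *Siglecg* was lower (difference -2.87, SE 0.15). *Trem1*, an amplifier of myeloid inflammation, had 5.13, 4.95 and 5.34 in mϕ and 7.28, 6.99 and 7.04 in the DCs (difference -1.96, SE 0.16).

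Antigen presentation genes differed in few of the members that were measured. The class I genes *H2-K1*, *H2-D1*, *H2-T23* and *H2-Q7* had no probeset with a single symbol and were not compared. The same held for the class II genes *H2-DMb1* and *H2-DMb2*. Of 16 MHC class II genes 0 were higher and 2 lower, and of 17 genes of MHC class I and cross-presentation 0 passed in either direction by limma, although 9 had an unadjusted p below 0.05. The methods' t-test, run on the 6 arrays with the same size threshold, passed 0 at an unadjusted p below 0.05. The size threshold alone can give such a count, here and in the lists below, so it adds no separate support. The 2 that were lower encode the chains of H2-O, which restrains peptide loading by H2-M. *H2-Oa* had 6.83, 6.63 and 6.97 in mϕ and 10.30, 10.50 and 10.58 in the DCs (difference -3.65, SE 0.13, adjusted p = 8.26e-11), and *H2-Ob* had 6.12, 7.13 and 6.37 in mϕ and 9.45, 9.65 and 9.75 in the DCs (difference -3.07, SE 0.19). The arrays of the populations did not overlap for either gene. The invariant chain gene *Cd74* differed by 0.13, the H2-M gene *H2-DMa* by 0.28 and the class II transactivator gene *Ciita* by -0.31.

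Costimulatory and maturation genes were mixed. Of 31 costimulators and coinhibitors 5 were higher in CD64+ mϕ and 6 lower, and of 32 DC maturation and migration genes 3 were higher and 10 lower. *Cd86* (difference -0.22), *Cd80* (-0.23), *Cd40* (0.37) and *Cd274* (0.19) did not pass. *Tnfsf9*, the 4-1BB ligand gene, had 6.80, 7.70 and 6.33 in mϕ and 10.06, 9.97 and 9.63 in the DCs (difference -2.95, SE 0.30). *Cd101*, an inhibitor of T-cell activation, had 4.84, 4.57 and 4.57 in mϕ and 7.96, 7.93 and 7.98 in the DCs (difference -3.30, SE 0.12). On the mϕ side, the inhibitory ligand genes *Vsir* (VISTA) and *Pdcd1lg2* (PD-L2) were higher by 2.65 (SE 0.16) and 1.55 (SE 0.26). *Traf1* (difference -2.67) and *Relb* (-1.32), which act in NF-κB signalling of maturing DCs, were lower in mϕ.

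Transcription factor genes known from the lineages separated in both directions, with 13 of 53 higher in CD64+ mϕ and 10 lower. *Maf* had 7.72, 7.90 and 8.03 in mϕ and 5.37, 5.79 and 5.23 in the DCs (difference 2.42, SE 0.13). *Zeb2* had 9.52, 9.56 and 9.52 in mϕ and 7.57, 7.51 and 7.59 in the DCs (difference 1.98, SE 0.12), whereas its relative *Zeb1* was lower (difference -1.88, SE 0.08). *Tfec*, *Cebpb* and *Pparg* were higher by 3.05, 1.71 and 1.49. *Irf4*, which CD11b+ DCs need, had 7.02, 8.11 and 6.4 in mϕ and 8.79, 8.70 and 8.75 in the DCs (difference -1.57, SE 0.30), and -2.04 without mϕ replicate 2. *Irf8*, the factor of CD103+CD11b- DCs, was higher in mϕ by 1.56 (SE 0.18), with means of 9.42 ± 0.33 in mϕ and 7.85 ± 0.12 in CD103-CD11b+ DCs (SD, n = 3 each), while the CD103+CD11b- subset averaged 11.54. *Bhlhe40*, *Bcl11a* and *Bcl6* were lower in mϕ, with differences of -2.73, -2.57 and -1.27. The myeloid master factor gene *Spi1* (difference -0.08), *Irf5* (-0.03), *Klf4* (0.11) and *Batf3* (0.02) did not pass. The orphan nuclear receptor genes *Nr4a1*, *Nr4a2* and *Nr4a3* were lower, with differences of -1.41, -3.13 and -2.11, and replicate 2 was the highest mϕ array for each.

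Of 25 growth factor and survival receptor genes, 8 were higher in CD64+ mϕ and 2 lower, and of 40 TGF-β signalling and target genes 8 were higher and 2 lower. The TGF-β receptor genes were higher. *Tgfbr1* had 9.66, 9.57 and 9.32 in mϕ and 8.04, 7.46 and 7.78 in the DCs (difference 1.75, SE 0.14), and *Tgfbr2* had 8.67, 8.44 and 8.40 in mϕ and 7.31, 7.34 and 7.30 in the DCs (difference 1.18, SE 0.14). The mediator gene *Smad3* (difference 1.56) and the TGF-β induced genes *Tgfbi* (2.14) and *Pmepa1* (2.14) were also higher. *Tgfb1* itself (difference 0.51) and the inhibitory *Smad7* (-0.87) did not pass, and *Itgae*, a TGF-β target in mucosal lymphocytes, was lower. Of 23 retinoic acid and vitamin A genes 3 were higher and 1 lower. The lower gene was *Aldh1a2*, the retinal dehydrogenase of mucosal DCs, with 5.11, 5.05 and 5.35 in mϕ and 7.42, 7.27 and 7.17 in the DCs (difference -2.12, SE 0.12).

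Tissue remodelling genes were higher for 16 of 41 members and lower for 2, with a median of 0.81. *Mmp13* had 10.22, 9.81 and 10.05 in mϕ and 4.46, 4.55 and 4.89 in the DCs (difference 5.39, SE 0.14). *Mmp9* had 10.72, 9.78 and 10.81 in mϕ and 5.40, 5.37 and 5.50 in the DCs (difference 5.01, SE 0.21), and the gelatinase gene *Mmp2* and the membrane-bound *Mmp14* differed by 3.11 and 3.65. *Adam8* was lower (difference -2.47, SE 0.15), and the elastase gene *Mmp12* did not pass (difference -1.18, adjusted p = 0.018) except without mϕ replicate 2 (-1.49). Of 39 adhesion genes 9 were higher and 3 lower. *Itga9* and *Itgb5* were higher by 4.52 (SE 0.26) and 4.40 (SE 0.20), and *Itgb7*, the partner chain of CD103 and of the gut-homing α4 integrin, had 6.4, 6.82 and 6.25 in mϕ and 8.56, 9.02 and 8.72 in the DCs (difference -2.28, SE 0.14).

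Interferon-stimulated genes were higher in CD64+ mϕ for 12 of 30 members and lower for 0, with a median of 0.91. *Ifit3* had 9.93, 9.30 and 9.33 in mϕ and 7.62, 6.91 and 7.48 in the DCs (difference 2.18, SE 0.24, adjusted p = 1.08e-05). *Cxcl10* had 11.89, 11.66 and 11.15 in mϕ and 9.89, 10.03 and 9.90 in the DCs (difference 1.63, SE 0.28), and *Oas2* differed by 2.12 (SE 0.22). The arrays did not overlap for these genes. *Cxcl9* had 11.72, 10.29 and 11.80 in mϕ and 9.56, 9.53 and 10.13 in the DCs (difference 1.53), and it lost the call without DC replicate 1 or 2 or mϕ replicate 1 or 3 (differences 1.26 to 2.02 over the fits that left out 1 array). *Ifitm3* (difference 0.10) and *Stat2* (0.10) did not pass. In the 6 arrays alone, 9 members passed.

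The interferon-stimulated response element (ISRE) consists of GAAA, any 2 bases and GAAA again, and the promoters of 2 genes that passed are printed to show it, from 250 bases before to 50 after the start (RefSeq, GRCm38.p6), with matches on either strand in capitals. *Ifit3* lies at chr19:34583279-34583578 on the plus strand and *Cxcl10* at chr5:92348840-92349139 on the minus strand.
Ifit3: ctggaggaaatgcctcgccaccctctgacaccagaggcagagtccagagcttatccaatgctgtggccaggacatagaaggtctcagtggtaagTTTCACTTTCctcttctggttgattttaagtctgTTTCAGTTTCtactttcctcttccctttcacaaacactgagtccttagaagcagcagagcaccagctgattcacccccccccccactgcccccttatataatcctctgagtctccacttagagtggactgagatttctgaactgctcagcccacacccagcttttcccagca
Cxcl10: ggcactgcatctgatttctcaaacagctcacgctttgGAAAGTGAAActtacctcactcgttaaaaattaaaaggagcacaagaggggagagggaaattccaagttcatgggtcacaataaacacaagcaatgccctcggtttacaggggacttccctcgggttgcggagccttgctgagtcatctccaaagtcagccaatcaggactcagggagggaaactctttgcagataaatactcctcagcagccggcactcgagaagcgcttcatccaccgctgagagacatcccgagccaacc
*Ifit3* held 2 matches and *Cxcl10* 1. Promoters were matched for 22 of the 30 genes and 13 held the element, 5 of the 9 that passed and 8 of the 13 that did not, against 3.99% of all genes in the table.

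Cell cycle and DNA replication genes were the list with the most members lower in mϕ by count. By share, the conventional DC identity list was slightly ahead (70.4%, against 68.9% for cell cycle). Of 45 measured, 31 were lower in CD64+ mϕ and 0 higher, with a median of -1.18. *Mki67*, which encodes the proliferation antigen Ki67, had 7.36, 7.74 and 7.67 in mϕ and 8.75, 9.06 and 9.25 in the DCs (difference -1.43, SE 0.15, adjusted p = 7.35e-06). *Kif11*, the spindle motor gene, had 5.84, 6.46 and 5.75 in mϕ and 7.77, 7.85 and 8.12 in the DCs (difference -1.90, SE 0.20), and *Ccnb2*, a mitotic cyclin gene, had 7.14, 7.33 and 6.71 in mϕ and 8.56, 8.77 and 9.15 in the DCs (difference -1.76, SE 0.19). No mϕ array reached a DC array for any of these 3 genes. Some replication genes were lower too, the helicase genes *Mcm6* with a difference of -1.48 (SE 0.15) and *Mcm2* with -1.18 (SE 0.19; -1.0 and not passing without mϕ replicate 2), and the topoisomerase gene *Top2a* with -1.52 (SE 0.16). The 14 members that did not pass included the sliding clamp gene *Pcna* (difference -0.35), *E2f1* (-0.33) and *Ccne2* (-0.17), the 3 smallest differences of the list. The mean over the list was 6.45, 6.53 and 6.50 on the mϕ arrays and 7.53, 7.61 and 7.82 on the DC arrays. The other DC subsets resembled CD103-CD11b+ DCs, with *Mki67* means of 8.88 to 9.20. Without mϕ replicate 2, and likewise without DC replicate 3, 28 members passed as lower.

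Many mitotic promoters carry a cell cycle genes homology region (CHR) with the letters TTTGAA. The promoters of *Kif11* (chr19:37376132-37376431, plus strand) and *Mki67* (chr7:135716330-135716629, minus strand) are printed because these genes stand for the group (RefSeq, GRCm38.p6, same window), with matches on either strand in capitals.
Kif11: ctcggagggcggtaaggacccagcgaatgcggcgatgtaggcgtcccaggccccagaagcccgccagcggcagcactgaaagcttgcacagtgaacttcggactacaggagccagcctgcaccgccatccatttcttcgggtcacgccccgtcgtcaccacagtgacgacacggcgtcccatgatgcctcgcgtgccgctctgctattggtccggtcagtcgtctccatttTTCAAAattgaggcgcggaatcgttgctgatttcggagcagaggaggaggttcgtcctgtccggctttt
Mki67: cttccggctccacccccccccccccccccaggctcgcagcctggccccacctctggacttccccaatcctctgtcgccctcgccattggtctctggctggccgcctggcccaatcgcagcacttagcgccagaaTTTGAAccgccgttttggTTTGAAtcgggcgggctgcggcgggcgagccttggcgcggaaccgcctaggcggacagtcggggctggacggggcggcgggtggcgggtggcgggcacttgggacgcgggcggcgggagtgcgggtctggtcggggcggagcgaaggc
*Kif11* held 1 match and *Mki67* 2. Promoters were matched for 36 of the 45 genes and 16 held the letters, 12 of the 24 that passed and 4 of the 12 that did not, against 20.2% of all genes in the table. The letters CCAAT stood in 27 of the 36, against 41.1% of all genes. Both motifs are short, so matches by letters alone are common.

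**Figure D4:**
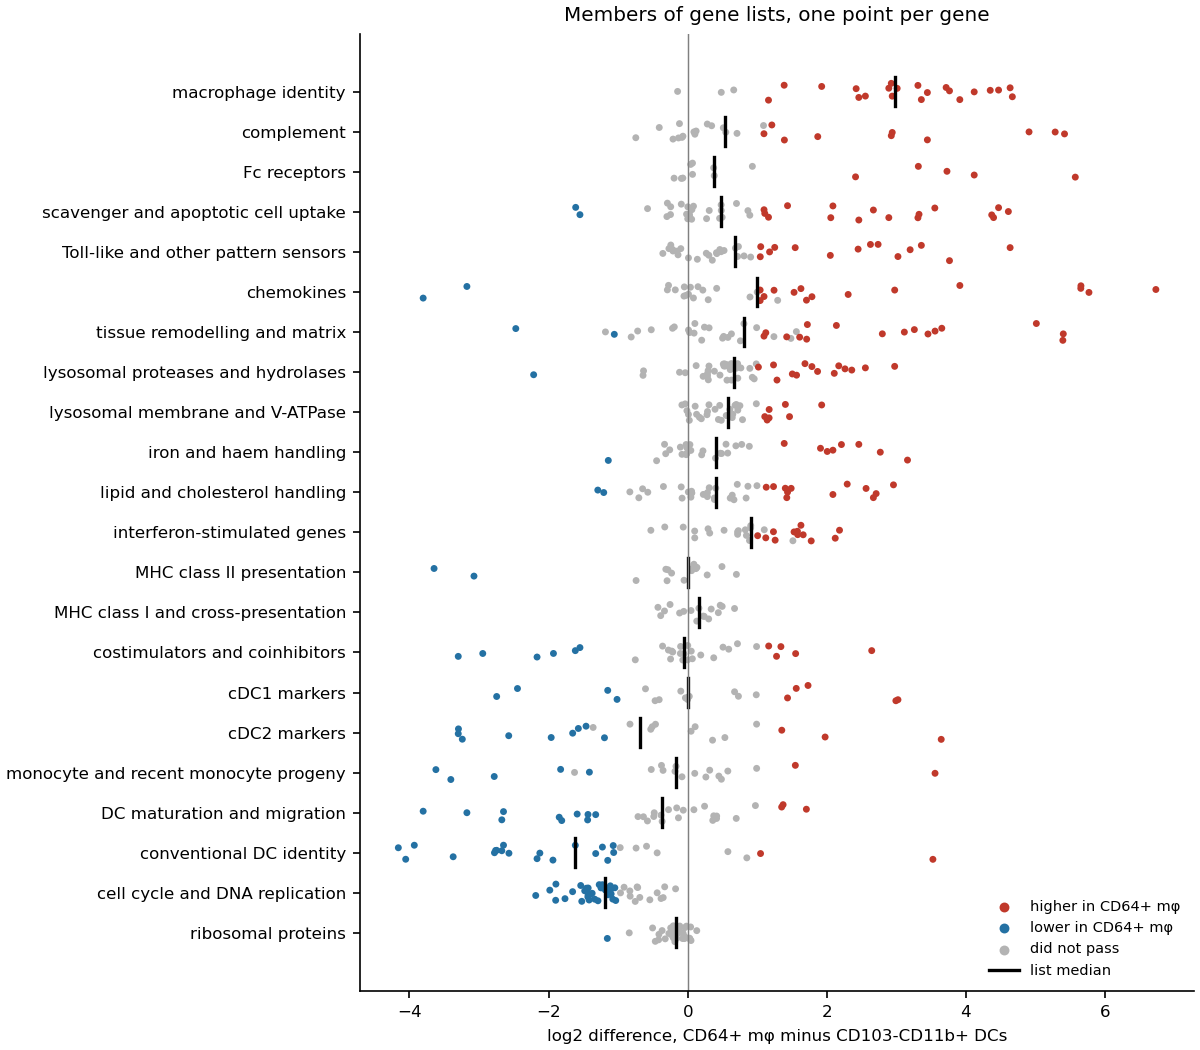
Differences (CD64+ mϕ minus CD103-CD11b+ DCs, log2) of the members of each gene list, with 1 point per gene and a bar at the list's median. The macrophage identity list had the highest median among the lists discussed (2.98), and the conventional DC identity (-1.62) and cell cycle (-1.18) lists lay below 0.

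Lists for other cells that a sort from the LP could hold were read against the 3.02% of all genes that passed as higher and the 2.16% as lower. These shares include dim genes. Among the 7961 genes with a mean of at least 6 in either population, 568 passed as higher and 418 as lower, which are larger shares. Of 29 epithelial genes, 3 were higher in CD64+ mϕ (10.3%) and 1 lower, the higher ones being the enterocyte genes *Fabp1* and *Fabp2* and the secretory gene *Spink1*. *Fabp1* had 10.31, 9.22 and 10.09 in mϕ and 6.86, 6.39 and 7.29 in the DCs (difference 3.03, SE 0.37), and *Fabp2* had 10.89, 9.98 and 10.35 in mϕ and 8.11, 6.70 and 7.83 in the DCs (difference 2.86, SE 0.41). For both genes replicate 2 was the lowest mϕ array, whereas the goblet cell gene *Muc2* was highest there, with 5.15, 7.82 and 5.08 in mϕ and 6.41, 5.83 and 6.61 in the DCs. The Paneth cell defensin gene *Defa24* had 3.83, 9.58 and 3.66 in mϕ and 8.15, 8.63 and 8.79 in the DCs. *Spink1* (difference 1.47) lost the call without DC replicate 1 or 2 (1.32 each). The lower gene, E-cadherin *Cdh1* (difference -1.34), lost it without DC replicate 3 (-1.3) or mϕ replicate 1 (-1.1) or 3 (-1.15). Without mϕ replicate 2, 4 epithelial genes passed as higher and 9 as lower, *Muc2* (difference -1.17) and *Defa24* among the last, and the median of the list was -0.58, against 0.05 with it. Of 21 pancreatic acinar genes 0 passed in limma, 0 had an unadjusted p below 0.05, and the methods' t-test passed 0. *Ctrb1*, the chymotrypsinogen gene, had 4.85, 10.10 and 4.62 in mϕ and 4.78, 5.03 and 10.70 in the DCs, so that mϕ replicate 2 and DC replicate 3 were high, and its difference ran between -2.10 and 1.62 when 1 array was left out.

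Several lymphoid lists held larger shares of passing genes than all genes did. Of 20 T-cell genes 2 were higher (*Cd4* and *Cd3g*). Of 21 B-cell and plasma-cell genes 3 were higher (*Cd22*, *Prdm1* and *Cd79b*, 14.3%) and 2 lower (*Irf4* and *Spib*, 9.52%). *Cd79b* differed by 1.35 and lost the call without DC replicate 2 (1.1) or 3 (1.38) or mϕ replicate 2 (1.23). *Jchain*, a plasma-cell gene, had 11.38, 12.23 and 11.64 in mϕ and 12.06, 11.45 and 11.67 in the DCs, with a difference of 0.03 and signal on all 6 arrays. *Cd22* was higher, with 8.28, 7.19 and 8.10 in mϕ and 5.84, 5.38 and 5.45 in the DCs (difference 2.30). Of 21 natural killer and innate lymphoid genes 5 were lower (23.8%), among them *Kit*, *Cd7* (difference -3.24) and *Tbx21* (-1.48), while the natural killer gene *Ncr1* was dim on all 6 arrays, with means of 3.42 in mϕ and 3.47 in the DCs. Of 16 neutrophil genes 2 were higher, *Mmp9* and *Csf3r* (difference 1.84), while *S100a8* averaged 3.98 in mϕ and 4.36 in the DCs, and *Ly6g* averaged 3.18 in mϕ and 3.11 in the DCs. Of 24 stromal, endothelial and muscle genes 1 was higher, the hyaluronan receptor gene *Lyve1* (difference 1.39), which some tissue mϕ also express. *Col1a1* differed by 0.01. Of 15 enteric neuron and glia genes 0 passed in limma, 1 had an unadjusted p below 0.05, and the methods' t-test passed 0.

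**Figure D5:**
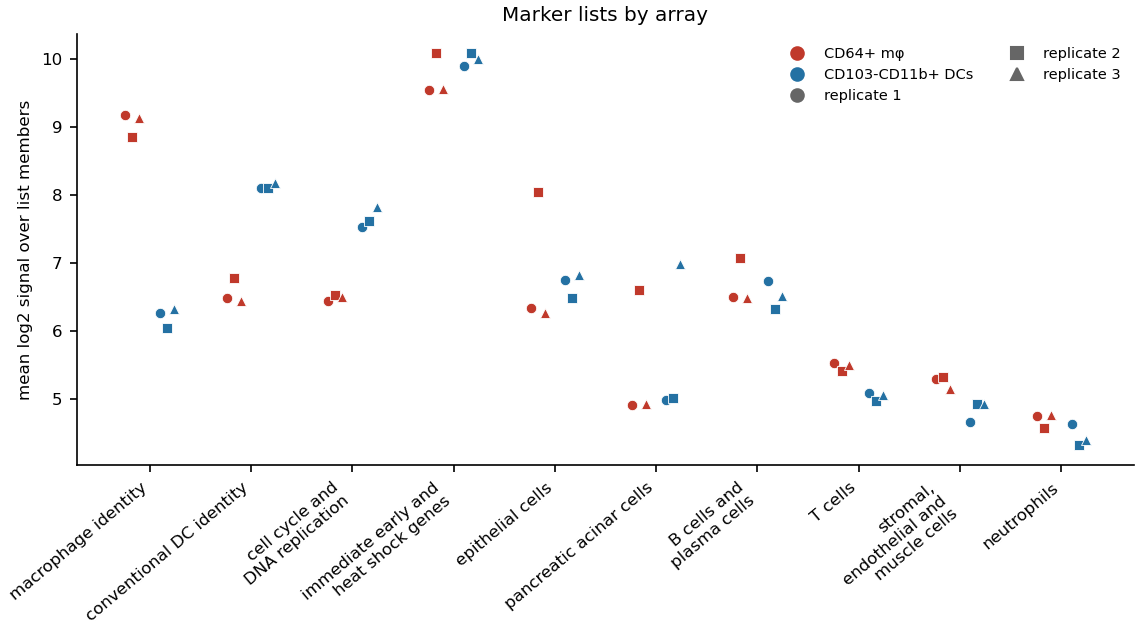
The mean log2 signal of each marker list on the 3 CD64+ mϕ arrays (left) and the 3 CD103-CD11b+ DC arrays (right). The macrophage list ran at 8.86 to 9.18 in mϕ and 6.04 to 6.32 in the DCs, and the epithelial list stood at 8.04 on mϕ replicate 2.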

How the data were processed

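The authors hybridised RNA from FACS-purified small intestinal cells to Affymetrix Mouse Gene 1.0 ST arrays and normalized all 15 together by robust multi-array averaging (RMA). The deposited table holds log2 signals for 35556 probesets. RMA sets the arrays to one distribution, so a shift shared by all genes cannot be seen. Of the probesets, 21789 had 1 gene symbol in the platform annotation, 1621 had several and 12146 were not listed there, and the first were reduced to 19938 genes by taking the probeset with the highest mean. No detection calls were used, and the number of arrays limits the precision.

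Differences were tested with limma 3.58.1 in R 4.3.3 (lmFit and eBayes), with all 15 arrays sharing one estimate of the spread, and p-values were adjusted over all genes by Benjamini-Hochberg. To pass, a gene had to differ by over 1 on the log2 scale with an adjusted p below 0.01. Promoters were read from a RefSeq table (GRCm38.p6). The procedure was tested on simulated data with 200 of 19938 genes changed, where 96% of changes of 1.5 and 100% of changes of 3 were recovered with 0 false calls. The simulated noise was independent, with the same spread for a gene on all 15 arrays, and unchanged genes had equal means. It held no outlying array, other cells or shared replicate effects, and the size threshold made false calls unlikely. The recovery is therefore for a simpler setting than these data. The comparison, the gene lists and the tests were chosen with earlier results of these data known.

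The genes named were taken, with their values known, from those behind the sort, the 15 largest in each direction, and of each list up to 10 members with the largest and 3 with the smallest absolute differences, not all of which are named; *Bcl6*, *Ccl3*, *Ccl4*, *Cd274*, *Cd40*, *Cd74*, *Cd80*, *Cd86*, *Cfp*, *Clec4a2*, *Clec9a*, *Fth1*, *Ftl1*, *Gaa*, *Hexa*, *Hmgcs1*, *Il12b*, *Il1b*, *Il23a*, *Irf5*, *Jaml*, *Jchain*, *Lipa*, *Ly6g*, *Mcm2*, *Mki67*, *Mmp12*, *Muc2*, *Ncr1*, *Ptger4*, *Relb*, *Smad7*, *Spi1*, *Srebf2*, *Tgfb1*, *Tlr3*, *Tnf*, *Uty*, *Xcr1*, *Xist* and *Zbtb46* were chosen after their values were seen. Alternatives changed the arrays in the fit, the replicate block, the probeset rule, the normalization, a filter on dim genes, the estimate of the spread, array weights, the thresholds and the test, and left out each array in turn. Figures were drawn with matplotlib 3.10.9, and tables were made with numpy 2.4.6 and pandas 2.3.3 under Python 3.11.15.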

Additional observations from a re-analysis of the deposited data

How the results depend on the processing

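With 603 genes higher and 430 lower in CD64+ mϕ, the counts stayed within 1.5 times under most alternatives. No gene that passed in the main fit passed in the opposite direction under an alternative. Among the genes named, none that passed changed sign, and no list median past 1 in either direction in the main fit changed sign. The monocyte median (0.07 without DC replicate 1), the epithelial median (-0.58 without mϕ replicate 2) and some other list medians near 0 did. Testing against a log2 difference of 1 (treat) gave 226 higher and 125 lower, since the test then asks for more than that size, and the methods' t-test with Benjamini-Hochberg adjustment at 0.05 gave 361 and 272 (604 and 432 unadjusted). Leaving out each array gave 544 to 692 higher and 383 to 497 lower, the highest of each without mϕ replicate 2. The median of the macrophage identity list was 3.31 among genes with a mean of at least 6. Over the fits without 1 array, 1 to 2 conventional DC identity genes were higher in mϕ (1 without DC replicate 2 or mϕ replicate 3), and the median of the cell cycle list ran between -1.34 and -1.12. Over all genes, same-numbered arrays of the populations did not deviate together (correlations of -0.0309, 0.0436 and 0.0675), and the main fit did not pair them. These correlations take all genes at once, so they do not decide whether smaller sets of genes followed the replicate number. Replicate 2 of both was the high *Xist* array. Heat shock and immediate early genes had their highest mean on replicate 2 of every population. Pancreatic acinar genes did so too, except among CD103-CD11b+ DCs, where replicate 3 was highest. A shared source was not tested. The replicate block gave 608 higher and 442 lower, and of the genes named it changed the call of *Il6* alone. Of the other comparisons with mϕ, it gave 672 higher and 482 lower against CD103+CD11b+ DCs, 811 and 601 against the CD103+CD11b- subset, and 748 and 517 against CD103-CD11b- cells. Of 204 genes named, 148 passed, and 137 of these passed in every fit without 1 array. The 11 others were *C1qc*, *C4b*, *Ccr9*, *Cd79b*, *Cdh1*, *Cxcl9*, *Jaml*, *Mcm2*, *Ptger4*, *Rpl12* and *Spink1*. Under every alternative 88 passed and 54 were lost under treat. The 3 arrays per population, with an unstated number of mice each, limit small differences, and genes near the dim end have compressed folds.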

Other observations

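Lists not described above moved in parts. Of 22 genes marking CD11b+ conventional DCs, 3 were higher in CD64+ mϕ (*Clec4a3*, *Zeb2* and *Clec4a2*) and 9 lower (median -0.68), and of 20 genes marking CD103+CD11b- conventional DCs, 5 were higher and 4 lower (median 0.0). *Tlr12*, a profilin sensor gene, had 10.83, 9.22 and 10.61 in mϕ and 6.88, 7.09 and 7.61 in CD103-CD11b+ DCs (difference 3.02, SE 0.33), against a mean of 10.2 in CD103+CD11b- DCs. *Cadm1*, an adhesion molecule gene, had 9.33, 7.78 and 9.07 in mϕ and 5.79, 5.69 and 5.73 in CD103-CD11b+ DCs (difference 2.99, SE 0.30), and averaged 9.57 in CD103+CD11b- DCs. In contrast, *Xcr1* (difference -0.61) and *Clec9a* (-0.47), which define CD103+CD11b- DCs, did not pass. Of 15 plasmacytoid DC genes 6 were higher (40.0%, against 3.02% of all genes) and 2 lower (13.3%, against 2.16%). Among the higher were *Lair1* (difference 2.59) and *Siglech* (1.41), and the lower were *Spib* (-1.34) and *Ccr9* (-1.12). In the fit of the 6 arrays alone, *Siglech* and *Ccr9* did not pass.

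Of 37 ribosomal protein genes 0 were higher and 1 lower (*Rpl12*, difference -1.16, and -0.84 without mϕ replicate 3), and of 26 antimicrobial and oxidase genes 0 passed in limma, although 11 had an unadjusted p below 0.05, and the methods' t-test passed 0. Of 34 immediate early and heat shock genes 2 were higher and 3 lower, and without mϕ replicate 2, 2 were higher and 7 lower. The mean of that list was 9.55, 10.09 and 9.57 on the mϕ arrays and 9.90 to 10.09 on the DC arrays. *Xist*, which is transcribed from the inactive X chromosome, had 4.33, 9.89 and 4.59 in mϕ and 4.24, 9.37 and 4.33 in CD103-CD11b+ DCs, and the Y-linked gene *Uty* had 6.07, 5.13 and 5.95 in mϕ and 6.05, 4.94 and 5.72 in the DCs. Replicate 2 of both populations was thus high for *Xist* and low for *Uty*.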
